A study of Mus musculus with 2 samples.

Results

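The constitutive proteasome genes were examined in the RNA of monocytic myeloid-derived suppressor cells (M-MDSCs) taken from 4T1 tumours of mice on a normal-salt diet (NSD) or a high-salt diet (HSD). The members were the genes whose symbol is Psma, Psmb, Psmc, Psmd or Psme and a number, without Psmb8, Psmb9 and Psmb10, and 40 of the 20653 genes that could be named on the arrays met this rule. They comprised 16 genes of the core particle, 20 genes named Psmc or Psmd, and 4 activator genes named Psme. RNA had been hybridised to 1 Agilent one-colour (Cy3) mouse array per diet, and both groups were female BABL/c mice that carried subcutaneous tumours from injected 4T1 mammary carcinoma cells after 1 day of starvation. The NSD group received 0.4% NaCl in the chow with tap water, and the HSD group received 4% NaCl in the chow with 1% NaCl in the water, both for 16 days. The cells were isolated from tumour tissue with a magnetic bead kit and equal numbers were mixed within a diet group, so each array holds a pool of mice. With 1 array per diet no spread between mice could be computed, no test of the diet was possible, and a gene was counted only by a fold change of at least 1.5.

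The proteasome degrades proteins that carry ubiquitin chains. Its core particle is a barrel of stacked rings, in which the outer rings of alpha subunits (Psma genes) gate the entrance and the inner rings of beta subunits (Psmb genes) hold the proteolytic sites. The regulatory particle caps the barrel. In its base, ATPases (Psmc genes) unfold the substrate, and the non-ATPase subunits (Psmd genes) of base and lid bind ubiquitin and remove it. The activators encoded by Psme1, Psme2, Psme3 and Psme4 can take the place of the regulatory particle and open the barrel independently of ubiquitin. In cells exposed to interferon-γ, the catalytic beta subunits are replaced by Psmb8, Psmb9 and Psmb10, which form the immunoproteasome and alter the peptides offered to T cells. Proteasome genes are known to be induced together by the transcription factor NFE2L1 through antioxidant response elements in their promoters.

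The promoters of 4 members are shown, since they belong to the genes on which the comparisons below turn. Psmb5 and Psmb6 are a pair of catalytic subunits whose values differed, and Psme1 and Psme3 are activators. The sequences are from RefSeq (GRCm38.p6), run 5′ to 3′ from 250 bases before to 50 bases after the transcription start, and carry in capitals the matches to 4 motifs, searched on both strands.
Psmb5 promoter, chr14:54617946-54618245 (- strand): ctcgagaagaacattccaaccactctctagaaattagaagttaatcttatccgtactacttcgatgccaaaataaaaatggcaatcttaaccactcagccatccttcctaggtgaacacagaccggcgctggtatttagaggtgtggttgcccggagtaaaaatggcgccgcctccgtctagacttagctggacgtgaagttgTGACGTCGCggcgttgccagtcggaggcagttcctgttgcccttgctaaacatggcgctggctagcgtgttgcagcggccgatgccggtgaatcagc
Psmb6 promoter, chr11:70525107-70525406 (+ strand): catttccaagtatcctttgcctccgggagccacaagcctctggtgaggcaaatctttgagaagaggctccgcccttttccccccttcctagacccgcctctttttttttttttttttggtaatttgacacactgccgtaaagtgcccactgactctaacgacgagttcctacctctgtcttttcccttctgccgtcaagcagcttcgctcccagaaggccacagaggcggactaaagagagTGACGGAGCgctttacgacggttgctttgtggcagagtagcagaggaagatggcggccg
Psme1 promoter, chr14:55578244-55578543 (+ strand): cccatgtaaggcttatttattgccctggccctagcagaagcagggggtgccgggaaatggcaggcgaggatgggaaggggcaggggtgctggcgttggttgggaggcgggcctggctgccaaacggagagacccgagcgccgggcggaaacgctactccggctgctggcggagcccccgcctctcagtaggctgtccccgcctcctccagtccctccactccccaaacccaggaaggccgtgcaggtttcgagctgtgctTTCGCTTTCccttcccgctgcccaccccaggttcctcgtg
Psme3 promoter, chr11:101315963-101316262 (+ strand): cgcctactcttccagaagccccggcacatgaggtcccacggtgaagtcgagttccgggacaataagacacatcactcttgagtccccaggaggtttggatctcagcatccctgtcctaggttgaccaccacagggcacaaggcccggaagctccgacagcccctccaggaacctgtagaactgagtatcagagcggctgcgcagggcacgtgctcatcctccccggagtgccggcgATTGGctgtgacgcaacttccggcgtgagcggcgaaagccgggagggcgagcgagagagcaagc

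The motifs were TGACNNNGC, the core of the antioxidant response element, CCAAT, the box bound by NF-Y, TTCNNNGAA, the gamma-activated site, and GAAANNGAA, the core of the interferon-stimulated response element. No match overlapped another in the promoters shown. The capitals mark the antioxidant response element core in Psmb5 (TGACGTCGC) and Psmb6 (TGACGGAGC), the interferon-stimulated response element core read on the other strand in Psme1 (TTCGCTTTC), and a CCAAT box on the other strand in Psme3 (ATTGG). Promoters were found for 33 members. The antioxidant response element core was present in 6 of them (18.2%), against 14.0% of the 27025 genes in the table. The CCAAT box was present in 13 members (39.4%, against 41.1%), the gamma-activated site in 1 member, Psmd2 (3.03%, against 9.55%), and the interferon-stimulated response element core in 6 members (18.2%, against 9.76%). These are matches of letters in a short window and are given as a description.

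The transcript signals of the proteasome genes were first set side by side on both arrays. Of the 40 members, 38 were well above background on both arrays, with signals from 77.7 to 13611 intensity units in the NSD group and from 75.8 to 8956 in the HSD group. The exceptions were Psma8, the testis form of an alpha subunit (0.939 and 0.925 in the NSD and HSD groups), and Psmb11, the thymus form of a beta subunit (1.42 and 1.06), which were not well above background on either array and had no usable fold change. No spot was saturated. Before scaling, 30 of the 38 detected members had a lower signal on the HSD array, and the 75th percentile over all probes was also lower there, at 232.9 against 252.2 intensity units. The log2 fold changes below are therefore HSD minus NSD after each array's 75th percentile had been subtracted.

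**Figure D1:**
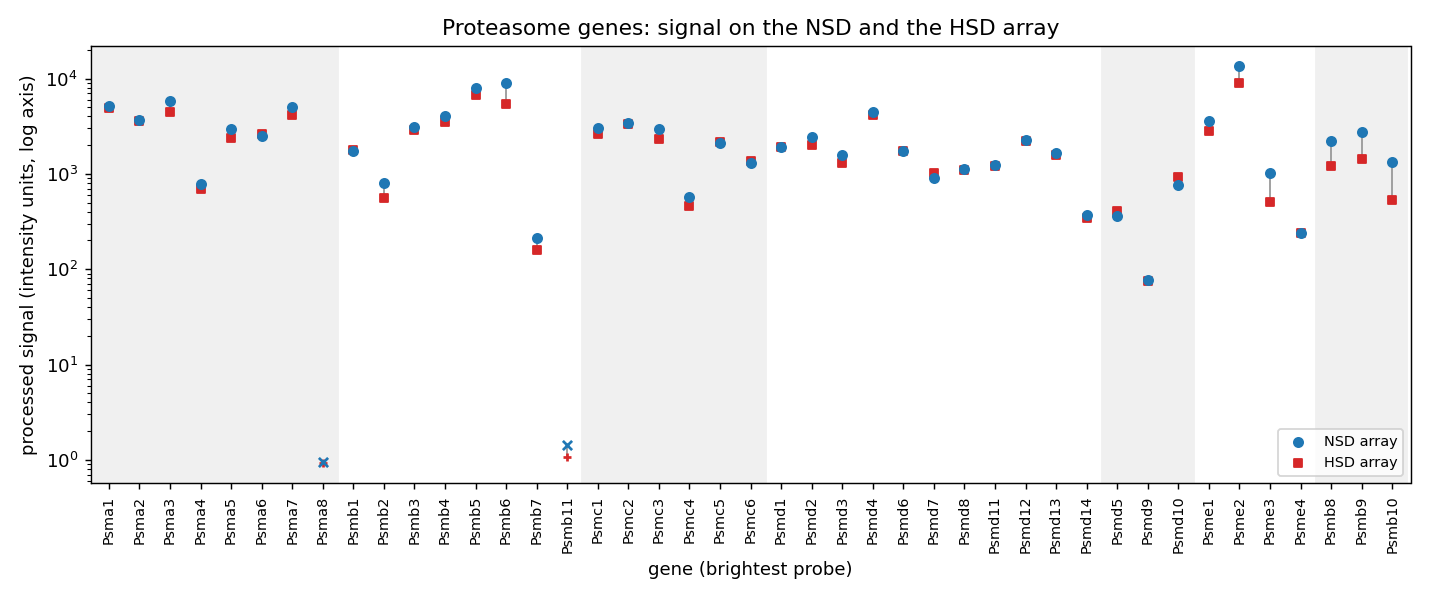
Processed signal of each proteasome gene (brightest probe) in intensity units on a log axis, as a circle for the NSD array and a square for the HSD array, with crosses for dim probes and shading to separate the groups of subunits. Most pairs of points nearly coincide, Psmb6, Psme2 and Psme3 separate visibly, and Psma8 and Psmb11 lie at the bottom, not well above background.

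The constitutive proteasome as a whole had nearly the same transcript levels in both groups. None of the 38 detected members was at least 1.5-fold higher in the HSD group, against 9.86% of the 16312 genes with a usable probe. Only Psmb6 and Psme3 were at least 1.5-fold lower, which is 5.26% of the members against 10.3% of all usable genes. Since dim probes are noisier, the 8620 genes within the members' range of mean signal were also counted, and 8.34% of these passed that fold change upwards and 8.83% downwards. Across the members the median was 0.025 on the log2 scale, beside 0.045 for all usable genes. Its sign depended on the scaling, and it was below 0 under 5 of the 10 alternatives, down to −0.059. Their values were also close together. Within a fold change of 1.2 lay 29 of 38 members (76.3%), compared with 49.9% of the genes in the members' signal range. This range ran from 76.8 to 11041 intensity units, with its lower end set by Psmd9. Within it the genes were not matched to the members on signal, so a difference in brightness may enter these comparisons. The median absolute log2 fold change was 0.14 for the members and 0.26 for the genes in that range.

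As a measure of technical error, repeated spots of one probe on an array were compared over the members' signal range. In 95% of the spot pairs the log2 difference was below 0.21 on the NSD array and below 0.27 on the HSD array. These limits describe the arrays alone, and mice or cell preparations may differ by more. A total of 8 members (21.1%) exceeded the larger of these limits, against 49.8% of the genes in the members' signal range, which were not matched to them on signal. The 8 members were Psmb2, Psmb6, Psmb7, Psme2 and Psme3, which were lower in the HSD group, and Psmd5, Psmd7 and Psmd10, which were higher.

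**Figure D2:**
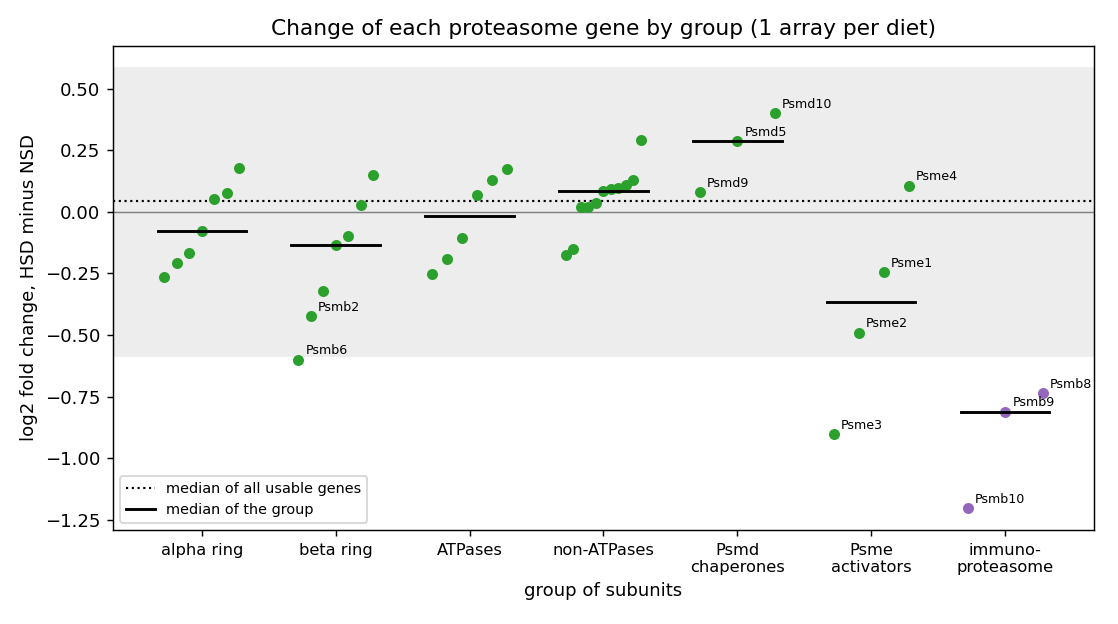
Log2 fold change (HSD minus NSD) of each detected member by group of subunits and, in purple, of the immunoproteasome subunits, with black bars for group medians, a dotted line for the median of all usable genes and a shaded band for changes under 1.5-fold. Psmb6 and Psme3 are the members outside the band, at −0.60 and −0.90, and all 3 immunoproteasome subunits lie below it.

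No gene of the alpha ring reached 1.5-fold. Its 7 detected genes had log2 fold changes from −0.26 to 0.18, with a median of −0.08, and their median absolute value was 0.17, beside 0.15 for the beta ring. Psma3 had the lowest value, with signals of 5780 with NSD and 4444 with HSD. Psma6 had the highest, with signals of 2509 and 2622. These genes encode neighbouring subunits of the same ring, and their values differed in sign. Psma1 (5170 and 4949), Psma2 (3638 and 3549) and Psma4 (791.5 and 693.7) had log2 fold changes of 0.05, 0.08 and −0.08. Psma4 was measured by a further probe, which gave −0.11. For Psma5 (2953 and 2361) and Psma7 (5034 and 4146) the log2 fold changes were −0.21 and −0.17.

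In the beta ring 1 gene, the catalytic subunit Psmb6, was past 1.5-fold, and 5 of the 7 detected genes had values below 0. Psmb6, which carries the caspase-like activity, gave 8886 intensity units with NSD and 5411 with HSD. Its log2 fold change was −0.60, and 9.91% of all usable genes had a larger fall. This value is just past the threshold, which is 0.585 on the log2 scale, and with the normexp background correction it was −0.54 and no longer past it. Psmb7, which carries the trypsin-like activity, had signals of 212.9 and 157.4 and a log2 fold change of −0.32. Psmb5, which carries the chymotrypsin-like activity and is the main target of proteasome inhibitor drugs, had signals of 8004 and 6744 at its brightest probe and a log2 fold change of −0.13. Its other probe, with signals of 1297 and 1293, gave 0.11, so the direction for Psmb5 was not settled by its probes. Of the subunits without a catalytic site, Psmb2 was the lowest, with signals of 808 and 556.6 and a log2 fold change of −0.42. Psmb1 (1720 and 1762), Psmb3 (3090 and 2912) and Psmb4 (4040 and 3490) had values of 0.15, 0.03 and −0.10. The median over the 7 detected beta genes was −0.13, and over the 14 detected genes of the core particle −0.12.

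The regulatory particle had no member past 1.5-fold in either direction. Over its 20 genes the log2 fold changes ran from −0.25 to 0.40 with a median of 0.08, and 17 of them lay within 1.2-fold. The 6 ATPase genes were evenly divided between both directions. Psmc3 (2966 and 2300) was the lowest at −0.25, and its other probe gave −0.07. Psmc6 (1296 and 1352) was the highest at 0.17, and Psmc5 (2128 and 2148) had a value of 0.13. Psmc4 (567.5 and 458.8) had −0.19. For Psmc1 the probes differed in sign, with −0.10 at the brighter (3059 and 2629) and 0.14 at the dimmer (712.4 and 725.5). Psmc2 had 0.07 at its brighter probe (3449 and 3342) and 0.30 at the other.

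Of the 11 non-ATPase genes of base and lid, 9 had a value above 0 and 2 below, and the median was 0.08. Psmd7, a lid subunit that pairs with the deubiquitinase Psmd14, was the highest, with signals of 903.3 and 1022 and a log2 fold change of 0.29. Psmd14 itself had signals of 369.8 and 346.6 and a value of 0.02. Psmd3 (1583 and 1297) was the lowest at −0.17, followed by Psmd2 (2445 and 2033), the large scaffold of the base, at −0.15, while the other scaffold, Psmd1 (1915 and 1907), had 0.11. Psmd4, a ubiquitin receptor, had signals of 4462 and 4182 and a value of 0.02. The others, Psmd6, Psmd8, Psmd11, Psmd12 and Psmd13, lay between 0.04 and 0.13 at their brightest probe. For Psmd12 the probes differed in sign, with 0.09 at the brighter (2249 and 2217) and −0.17 at the dimmer (180.2 and 147.5).

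Psmd5, Psmd9 and Psmd10 share the Psmd name but encode chaperones that help to assemble the base and are absent from the finished proteasome. All 3 had positive values, with a median of 0.29. Psmd10, known as gankyrin, gave 760.9 intensity units with NSD and 928.9 with HSD, a log2 fold change of 0.40, the highest of any member, and 0.13 at its other probe. Psmd5 had signals of 361.3 and 407.6 and a value of 0.29. Psmd9, the member with the lowest signals of those detected (77.7 and 75.8), had 0.08, and 0.26 at its other probe. Without these 3 genes the median of the regulatory particle was 0.07.

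The medians of the core and regulatory particles differed by −0.20 on the log2 scale, core minus regulatory. Scaling by a constant per array cannot move this difference. It was −0.196 with each such scaling, with each filter on dim probes and with flagged spots kept. Under the other alternative settings tried, it was between −0.24 and −0.18. No test of it was possible. In the regulatory particle 15 of 20 genes had a value above 0, and in the core particle 5 of 14, beside 8849 of 16312 usable genes. These counts depend on the scaling, because several of the values lie near 0. With cyclic loess the median of the regulatory particle was 0.006.

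The Psme activators differed most among themselves. Psme3, which encodes the nuclear activator, gave 1016 intensity units with NSD and 501.8 with HSD. This was a log2 fold change of −0.90, a level 1.87-fold lower. Among all usable genes 5.09% had a larger fall, and the value of Psme3 was between −0.99 and −0.75 under the 10 alternative settings. Its level rested on a single probe with 1 spot per array, as did those of Psmb6, Psmb8, Psmb9 and Psmb10. Psme2, an interferon-γ-inducible subunit of the cytoplasmic activator, had signals of 13611 and 8956 at its brightest probe, a log2 fold change of −0.49, and its other probe (2093 and 1175) gave −0.72. Both probes were lower in the HSD group. The gene's value passed 1.5-fold under 4 of the 10 alternatives, 1 of which took the median of both probes (−0.60). Psme1, the partner of Psme2 in the same ring, was the best measured member, with 10 spots per array. Its spots lay between 3420 and 3752 intensity units in the NSD group, with a median of 3600, and between 2690 and 2861 in the HSD group, with a median of 2778. The ranges of the spots did not overlap, also after scaling, and the SD between spots on the log2 scale was 0.045 and 0.031. The log2 fold change of Psme1 was −0.24, under 1.5-fold and within the limit of 0.27 for single spot pairs on the HSD array. Spots of a probe on an array are technical repeats. How often the spot ranges of other probes overlap was not counted. Psme4, an activator with known roles in spermatogenesis and DNA repair, had signals of 242.3 and 240.9 and a value of 0.11, and −0.006 at its dimmer probe.

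Psme1 and Psme2 lie next to each other on chromosome 14, with only Emc9 between them in the RefSeq order of genes. The genes of the immunoproteasome, also induced by interferon-γ, were lower in the HSD group at every subunit. Psmb8 gave 2191 intensity units with NSD and 1215 with HSD, with a log2 fold change of −0.74. Psmb9 had signals of 2721 and 1433 and a value of −0.81, and Psmb10 had 1337 and 536.8 and a value of −1.20. All 3 were at least 1.5-fold lower, also under each of the 10 alternatives, although several of these could not change genes measured by 1 probe with 1 spot per array. Set against the constitutive subunit whose place each one takes, the log2 fold change of Psmb9 was 0.21 below that of Psmb6, that of Psmb10 was 0.88 below Psmb7, and that of Psmb8 was 0.60 below Psmb5. The gap between Psmb9 and Psmb6 was the smallest. The spot-pair limits describe spots of a probe on a single array, whereas each gap combines both genes of a pair on both arrays. No limit of technical error was computed for the gaps.

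**Figure D3:**
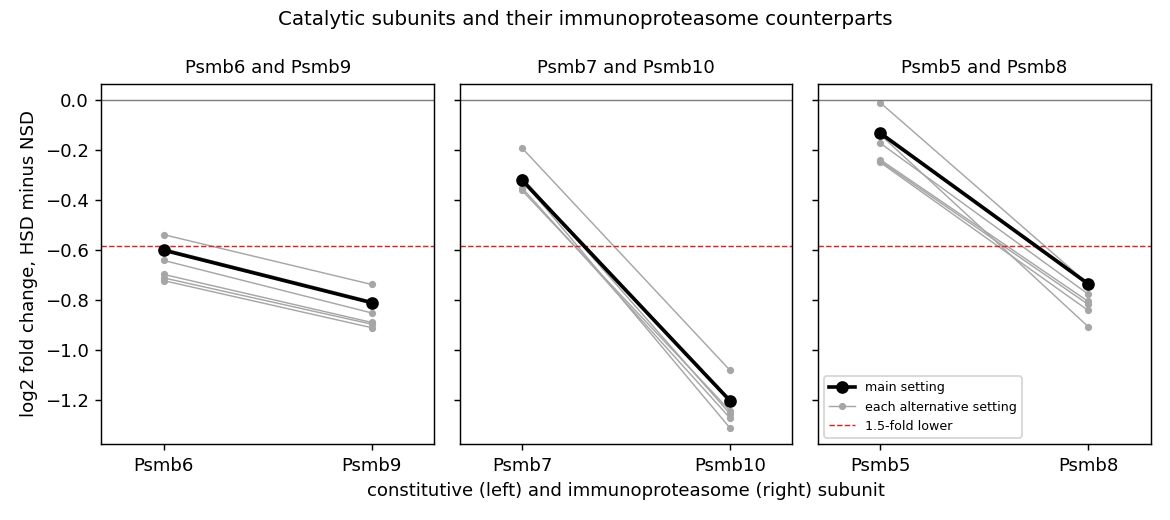
Log2 fold change (HSD minus NSD) of each constitutive catalytic subunit and of the immunoproteasome subunit that replaces it, with the values reported here in black, each alternative setting in grey and 1.5-fold lower as a dashed line. The immunoproteasome subunit is the lower of each pair, with −0.81 against −0.60 for Psmb9 and Psmb6, −1.20 against −0.32 for Psmb10 and Psmb7, and −0.74 against −0.13 for Psmb8 and Psmb5.

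Genes that work with the immunoproteasome in peptide presentation were given as a list of 7. All 7 had values below 0, with a median of −0.37. At least 1.5-fold lower were 2 of them (28.6%, against 10.3% of all usable genes). Tap1, the peptide transporter subunit encoded between Psmb9 and Psmb8 on chromosome 17, had signals of 199.9 and 80.1 and a log2 fold change of −1.21. Tap2, which lies next to Psmb8, was brighter, at 4123 and 3324, and had the smallest fall of the list, at −0.20. Nlrc5, the activator of class I genes, had 595.2 and 305.1 and a value of −0.85.

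Genes that assemble the proteasome or bind to it were examined as a list of 15, with a median of −0.03. At least 1.5-fold higher was 1 gene (6.67%, against 9.86% of all usable genes). Psmg1, Psmg2, Psmg3 and Psmg4, the chaperones that build the alpha ring, stood together, a group singled out after their values had been seen. Their log2 fold changes were −0.42, −0.50, −0.45 and −0.54, all below 0 and all under 1.5-fold, although Psmg4 passed it with cyclic loess (−0.59) and the normexp correction brought Psmg1, Psmg2 and Psmg3 to −0.32, −0.18 and −0.32, and the other probe of Psmg1 gave −0.43. Psmg4 had signals of 537.1 and 342.2, and Psmg1 of 359.1 and 247.7. Pomp, which matures the core particle, had signals of 2995 and 2735 and a value of −0.02, with 0.20 at its other probe, and Psmf1, an inhibitor of the core particle, 38.0 and 28.1 with a value of −0.32. Uchl5, a deubiquitinase of the regulatory particle, was the gene past 1.5-fold, with signals of 2012 and 2943 and a value of 0.66. Usp14, the other deubiquitinase bound there, had signals of 540.4 and 370.9 and a value of −0.43, and 0.00 at its dimmer probe.

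Upstream of the proteasome, 2 of 14 genes of ubiquitin, its shuttle factors and the segregase p97 were at least 1.5-fold higher and none lower. This was 14.3% of the list, against 9.86% of all usable genes, and the median of the list was 0.15. The genes past the threshold were Uba6, a ubiquitin-activating enzyme (141.8 and 202.3, log2 fold change 0.63), and Rad23b, a shuttle factor (249.7 and 355.5, 0.62). Each value is from the brighter of 2 probes. The ubiquitin gene Ubb had a value of 0.07.

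Among the genes that control proteasome transcription, 13 of 14 were detected, with a median of 0.22. Of these 2 (15.4%, against 9.86% of all usable genes) were at least 1.5-fold higher and none lower. Nfe2l1, the main inducer of proteasome genes, had signals of 42.1 and 38.1 and a log2 fold change of −0.03, and Nfe2l2 had 5647 and 5390 and a value of 0.05. Ddi2, the protease that activates NFE2L1, had signals of 634.4 and 1456 and a value of 1.31 at the brighter of its 2 probes. Maff, a small partner of these factors, had 37.4 and 75.8 and a value of 1.13. A list of 8 other target genes of NFE2L2 had 4 genes at least 1.5-fold higher and a median of 0.72. Slc7a11, the cystine transporter, was the highest of these, with signals of 523.1 and 1754 and a value of 1.86. Nqo1, a quinone reductase, had 183.7 and 497.7 and a value of 1.55. Gclm, a subunit of the enzyme that starts glutathione synthesis, had 1665 and 3400 and a value of 1.15. G6pdx, the first enzyme of the pentose phosphate pathway, had 10665.5 and 18138 and a value of 0.88. The constitutive subunits, whose promoters are also described as targets of these factors, had the median of 0.03 given above. A link between these lists was not tested.

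Other large complexes of housekeeping proteins served as a comparison. Of 83 detected genes of cytosolic ribosomal proteins, 81.9% lay within 1.2-fold and the median was 0.03. Of 36 genes of respiratory complex I, 52.8% lay within 1.2-fold and the median was −0.17, with 26 genes below 0. The share of proteasome members within 1.2-fold, 76.3%, lay between these. These shares were not tested against each other.

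**Figure D4:**
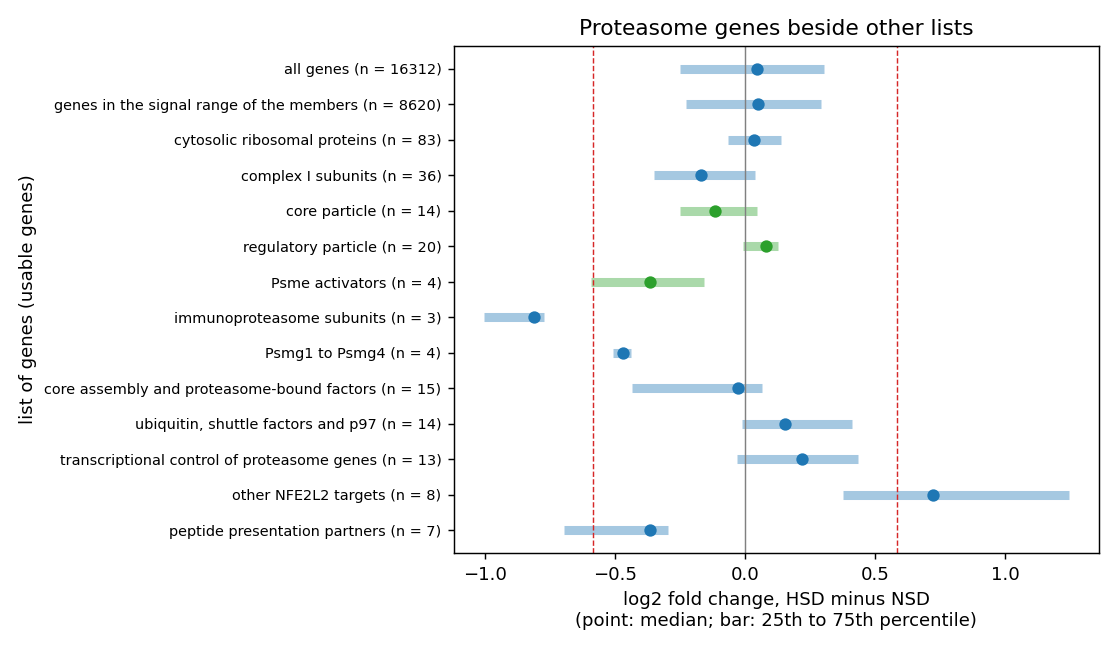
Median (point) and 25th to 75th percentile (bar) of the log2 fold change (HSD minus NSD) for the proteasome groups in green and other lists in blue, with the number of usable genes per list and dashed lines at 1.5-fold. The core and regulatory particles lie near 0, at −0.12 and 0.08, the Psme activators at −0.37, the immunoproteasome at −0.81 and the other NFE2L2 targets at 0.72.

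Marker genes of the cells were read on the same arrays, because fewer cells of a type and less RNA per cell cannot be told apart in pooled RNA. Itgam (CD11b) was bright on both arrays, at 31564 and 31043 intensity units, and Csf1r at 11343 and 8112. Of 9 named markers of monocytes and macrophages, all were detected. In the HSD group 4 of them were at least 1.5-fold lower and 1, Cd14, at least 1.5-fold higher. Over all usable genes 10.3% were lower and 9.86% higher, which are the shares to set beside this and each list below. The sum of the 9 signals was 59223 with NSD and 52950 with HSD. This and the other sums are of signals before scaling, and for neutrophils and dendritic cells they were lower with HSD while the medians of the scaled log2 fold changes were 0.07 and 0.06. Mrc1, Fcgr1 and Ms4a7, genes of mature macrophages, had log2 fold changes of −4.50, −3.68 and −2.38. All 7 named neutrophil markers were detected on both arrays as well, with a summed signal of 251976 and 242776, although the cells were isolated as the monocytic fraction. Of these Mpo, a granule enzyme, was at least 1.5-fold lower (3536 and 1723, log2 fold change −0.92), and the sum was carried by S100a8, S100a9, Camp and Ltf. Of 4 B cell markers none passed 1.5-fold, but all had positive values, from 0.30 to 0.55 (summed signal 6089 and 7077). Of 5 markers of carcinoma and epithelial cells 3 were at least 1.5-fold higher at low signals (summed 87.0 and 92.1), with Krt19 not well above background. Of 7 T and NK cell markers 6 were usable and 1 was at least 1.5-fold lower, with Ncr1 not well above background. Their sum was higher with HSD (2012 and 2334) and was carried by Cd3d (1501 and 1871). Of the 6, however, 4 had values below 0, and the median was −0.305. Dendritic cell markers had 5 of 6 usable with 1 past 1.5-fold each way, without Xcr1. Their sum (13810 and 13302) was almost all Siglech (13705 and 13214). Fibroblast markers had 4 of 5 usable with 2 lower (141.4 and 107.5), without Pdgfra. All 4 endothelial markers were usable and none passed 1.5-fold (249.3 and 275.3). All 6 genes of proliferating cells had positive values, from 0.32 to 0.69, and their summed signal was 3137 and 4310. The part of these shifts in the lower values of Psme2, Psme3 and the immunoproteasome genes was not tested.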

How the data were processed

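M-MDSC RNA was measured on 1 Agilent array per diet. Scanner files were deposited by the authors, and their processed signal is a background-corrected intensity from Feature Extraction 11.0.1.1, not normalized between arrays. Median spot and background intensities, also deposited, served only the normexp alternative. The authors also deposited log2 values normalized with GeneSpring, by a method not named in the article, used as an alternative. Their quartiles and maximum are equal on both arrays (median 4.61) and direction follows the column names. No column of sample values was left unused.

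Control spots and flagged spots were left out, signals were taken to log2, spots of a probe were averaged, and each array's 75th percentile was subtracted. A probe was well above background where at least 50% of its spots were, and usable where it was so on both arrays, or on 1 array with a fold change that held as a lower bound. Transcript identifiers named 27223 of 39413 probes (69.1%) through RefSeq (GRCm38.p6). The array was designed on mm9, so no probe coordinates are given. The brightest probe stood for a gene. Counts were tested on simulated data with known folds. The number of arrays limits the precision, and replicates, p-values and a slide block were not possible. A total of 71.9% and 72.4% of the probes were well above background on the NSD and HSD arrays.

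Members and gene lists were chosen with earlier results of these data known. All members are accounted for. Named with both signals were the members past 1.5-fold, the extremes of each group, the catalytic and Psme genes, those not detected and those with discordant probes, and outside the members Psmb8, Psmb9, Psmb10, Nfe2l1, Nfe2l2, Pomp, Psmf1 and listed genes past 1.5-fold. Of the markers, Ly6c2, Cd68 and Ly6g were not analysed here. The lists for ubiquitin and for peptide presentation each leave out 1 gene that is not reported here. Psmc3ip, which has letters after its number, was no member (log2 fold change 0.29). Noise between spots was taken from probes with at least 5 spots. Alternatives were fitted with limma 3.58.1 in R 4.3.3. The remaining steps ran in Python 3.11.15 (pandas 2.3.3, numpy 2.4.6), with figures from matplotlib 3.10.9.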

Additional observations from a re-analysis of the deposited data

How the results depend on the processing

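Psme3 and the 3 immunoproteasome subunits stayed at least 1.5-fold lower under the 10 alternatives for single genes, and 35 of 38 members stayed under 1.5-fold in all of them, the exceptions being Psmb6, Psme2 and Psme3. Some alternatives could not change Psme3 or the immunoproteasome subunits, each measured by 1 probe with 1 spot per array. These were both filter settings for dim probes, the median over probes and, apart from its effect on scaling, keeping flagged spots. Under these Psme3 was −0.904 or −0.905. The sign of 28 members held throughout, and that of Psma1, Psma2, Psmb3, Psmc1, Psmc2, Psmd1, Psmd4, Psmd12, Psmd13 and Psmd14, all near 0, did not. With the normexp correction 1 member (Psme3) was at least 1.5-fold lower, 622 genes were higher and 657 lower (1608 and 1682 in the values reported), and the immunoproteasome median was −0.91. With quantile normalization the medians were −0.21 for the core particle, −0.46 for the activators and −0.89 for the immunoproteasome, with the deposited values −0.21, −0.47 and −0.91, and with cyclic loess −0.22, −0.47 and −0.90, where the median of the members was −0.059 and that of the regulatory particle 0.006. Of all calls 48.9% were higher, and 38.5% with cyclic loess. Without a filter on dim probes 2903 genes were higher. At 2-fold 0 members were lower, with 428 genes higher and 681 lower. At 1.2-fold 3 members were higher and 6 lower, with 4663 genes higher and 3940 lower. The other values stayed within 1.5 times for counts or within 0.07 (log2) for medians, including the regulatory particle without its 3 chaperones, chosen after seeing the data. The cause was not tested for any of these shifts, except that a stricter or looser threshold or filter changes the counts by construction. No paired analysis was possible because each diet has 1 array. Signal over background limited the calls for Psma8 and Psmb11.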
